A study of Homo sapiens with 4 samples.

Results

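The major histocompatibility complex (MHC) on the short arm of chromosome 6 was taken as the stretch from 29600000 to 33400000 of the hg19 genome. It was divided into class I (up to 31.5 Mb), class III (31.5 to 32.35 Mb) and class II (from 32.35 Mb). Within it lay 1552 of the 371521 listed ATAC-seq summits and 859 of the 197823 listed regions. The outermost summits inside the bounds, at 29600223 and 33399336, had 23 and 30 reads, and the nearest outside, at 29599433 and 33400314, had 14 and 12. A region is a stretch with its own start and end, and a summit is a point of locally highest signal in it. ATAC-seq reads open chromatin through the cuts that the transposase Tn5 makes in it. The study used T47D-MTVL cells, luminal breast cancer cells with 1 integrated luciferase reporter under the MMTV promoter. They carried either an shRNA against multiple histone H1 variants (multiH1sh, 2 samples) or a random shRNA (RDsh, 2 samples). Linker histone H1 binds nucleosomes and the DNA between them, and the study asked how its depletion changed accessibility.

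The labels do not say whether samples of a group came from separate cultures. The single deposited list carries no value per sample. Its track line names RDsh and a knock-down under another name than the labels use, and that both names mean the same cells is an assumption. The list is also labelled as differential between multiH1sh and RDsh, and the sources used here do not say how the groups entered it. Whether a listed summit marks open chromatin in either group or a difference between them is therefore not known. No value below can be read as a comparison of knock-down with control. None carries a spread between replicates, and no test was possible. Differences between stretches are set beside their counting intervals only.

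The MHC holds a dense set of immune genes. Class I molecules, HLA-B and HLA-C among them, are displayed by nearly all nucleated cells and present peptides from inside the cell to cytotoxic T cells. The peptides are cut by the immunoproteasome, moved by the TAP transporter and loaded with the help of tapasin. Class II molecules (HLA-DR, HLA-DQ and HLA-DP) present peptides taken up from outside to helper T cells. They are normally made by professional antigen-presenting cells, and other cells make them when interferon gamma induces the coactivator CIITA. Class III carries genes of other kinds, such as complement components, tumour necrosis factor and heat shock proteins.

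Promoters of class I and class II genes are known to share an upstream module that ends in a Y box, bound by NF-Y at the letters CCAAT. Sequences before the starts of 7 genes are shown because these genes separate into those with a listed summit at the start (HLA-B, HLA-C, HLA-F and TAP1) and those without (HLA-DRB1, HLA-DMA and HLA-DPB1). Each is the 180 bases before the start in the RefSeq promoter table of GRCh38.p14, another build than the list, 5′ to 3′ in the direction of the gene. Capitals mark matches on either strand to CCAAT, to TGACG (the core of the X2 box), to TTCNNTTTC (an interferon response element core) and to GGGGATTCC (a kappa B site). Both matches to TTCNNTTTC before TAP1 overlap and print as 1 run of capitals.
HLA-B (GRCh38.p14 chr6:31357180-31357359, minus strand): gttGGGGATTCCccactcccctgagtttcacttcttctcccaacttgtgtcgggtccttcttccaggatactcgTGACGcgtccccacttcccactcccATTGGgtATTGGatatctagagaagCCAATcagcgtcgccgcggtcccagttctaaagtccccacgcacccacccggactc
HLA-C (GRCh38.p14 chr6:31272093-31272272, minus strand): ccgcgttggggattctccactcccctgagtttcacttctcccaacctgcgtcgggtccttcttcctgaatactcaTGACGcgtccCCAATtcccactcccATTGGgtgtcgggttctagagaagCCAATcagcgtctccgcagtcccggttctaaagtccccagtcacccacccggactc
HLA-F (GRCh38.p14 chr6:29723254-29723433, plus strand): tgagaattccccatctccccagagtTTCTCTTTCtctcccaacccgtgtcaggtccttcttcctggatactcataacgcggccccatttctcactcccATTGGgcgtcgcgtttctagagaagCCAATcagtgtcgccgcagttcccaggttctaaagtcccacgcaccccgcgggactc
TAP1 (GRCh38.p14 chr6:32853705-32853884, minus strand): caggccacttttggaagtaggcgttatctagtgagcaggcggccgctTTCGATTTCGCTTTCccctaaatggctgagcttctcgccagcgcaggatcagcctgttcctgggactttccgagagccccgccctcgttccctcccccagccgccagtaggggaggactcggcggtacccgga
HLA-DRB1 (GRCh38.p14 chr6:32589849-32590028, minus strand): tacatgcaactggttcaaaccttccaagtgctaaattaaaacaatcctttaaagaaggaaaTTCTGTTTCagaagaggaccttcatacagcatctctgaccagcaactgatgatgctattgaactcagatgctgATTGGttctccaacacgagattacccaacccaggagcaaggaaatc
HLA-DMA (GRCh38.p14 chr6:32953098-32953277, minus strand): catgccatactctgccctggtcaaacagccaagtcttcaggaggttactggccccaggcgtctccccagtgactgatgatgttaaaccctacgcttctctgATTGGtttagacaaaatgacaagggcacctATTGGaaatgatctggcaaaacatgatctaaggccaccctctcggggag
HLA-DPB1 (GRCh38.p14 chr6:33075810-33075989, plus strand): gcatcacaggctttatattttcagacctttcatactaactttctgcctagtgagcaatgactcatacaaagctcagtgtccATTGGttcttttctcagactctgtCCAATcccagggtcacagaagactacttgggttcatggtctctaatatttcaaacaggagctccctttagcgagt
At least 1 CCAAT stands in 6 of these sequences, and it is lacking in the 180 bases before TAP1. TAP1 does have a CCAAT within the 250 bases searched below. These 7 genes were picked, so they do not show how the letters go with a summit.

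In the whole promoter set, 96 of 109 MHC genes had an entry. CCAAT stood in the 250 bases before the start in 11 of 12 class II promoters (91.7%) and 3 of 4 class I promoters. It stood in 2 of 5 promoters of antigen processing genes and in 32.0% of all 35116 promoters. Among MHC genes with a listed summit at the start it stood in 36 of 77 promoters (46.8%). Among those without, it stood in 15 of 19 (78.9%), and 11 of these 15 were the class II promoters. TGACG was found in 4 of 12 class II, 2 of 4 class I and 3 of 5 antigen processing promoters, against 21.2% of all. TTCNNTTTC stood in 3 of 12, 1 of 4 and 3 of 5, against 6.88% of all. GGGGATTCC stood in 1 class I promoter, HLA-B, in no class II or antigen processing promoter, and in 0.253% of all.

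Base composition separated the same groups. The median GC content of these 250 bases was 44.6% in class II promoters, 60.6% in class I and 61.6% in antigen processing genes, against 58.0% over all promoters. The median number of CpG dinucleotides was 2.5, 14 and 16 in the same order. HLA-DPA1 stood apart from the other class II promoters with 70.4% GC and 24 CpG, and HLA-G from the other class I promoters with 34.0% GC and 1 CpG. The RefSeq starts can differ from the starts used for the summits below, and for both of these genes they belong to longer transcripts. Median GC content was 60.8% in the 77 promoters of MHC genes with a summit and 45.6% in the 19 without. The 12 class II promoters are among these 19, so the 2 contrasts are largely the same. HLA-G, which had a summit, and HLA-DPA1, which had none, went the other way. The part of GC content in what was listed was not tested.

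Density in the MHC as a whole was 408 summits per Mb (95% exact Poisson interval 388 to 429). The rest of the short arm of chromosome 6 had 96.0 per Mb (93.4 to 98.7), and the whole list had 123.5. The MHC was thus 4.25 times as dense as the rest of its arm by summits and 3.39 times by regions. The neighbouring stretches of equal length differed from each other. On the telomere side, towards the olfactory receptor and histone genes, lay 136 summits or 35.8 per Mb. On the centromere side lay 1565 summits or 412 per Mb, so the MHC was not denser than that neighbour (ratio 0.992). Listed regions covered 7.96% of the MHC, 0.664% of the telomere-side stretch and 8.05% of the centromere-side stretch.

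Class III held most of the summits for its length. It makes up 22.4% of the MHC and had 783 summits, 50.5% of the total (95% Wilson interval 48.0 to 52.9%), or 921 per Mb (858 to 988). Class I had 497 summits or 262 per Mb (239 to 286), and class II had 272 or 259 per Mb (229 to 292). The intervals of classes I and II overlap, and that of class III lies above both. By regions, class III had 405 per Mb, class I 186 and class II 153. Listed regions covered 17.6% of class III, 5.10% of class I and 5.31% of class II.

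Along the MHC the summits changed in steps. Of 38 windows of 100 kb the median had 23.5 summits, and 34 windows were above the median window of the whole list, which had 1 summit. The windows with the most lay at 31900001 to 32000000 (221 summits in 42 regions) and 32000001 to 32100000 (173 in 68 regions), both around the complement C4 genes. Next came 33100001 to 33200000 (107), 31700001 to 31800000 (102) and 32100001 to 32200000 (100). The densest window had more summits than 99.2% of the 30099 windows of the list. The 4 densest windows together held 38.9% of the summits of the MHC. The 2 windows at the C4 genes held 394 summits, or 50.3% of those of class III. Without these 2 windows class III was 2.30 times as dense as the remainder of the MHC, against 3.53 times with them, and held 33.6% of the summits.

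**Figure D1:**
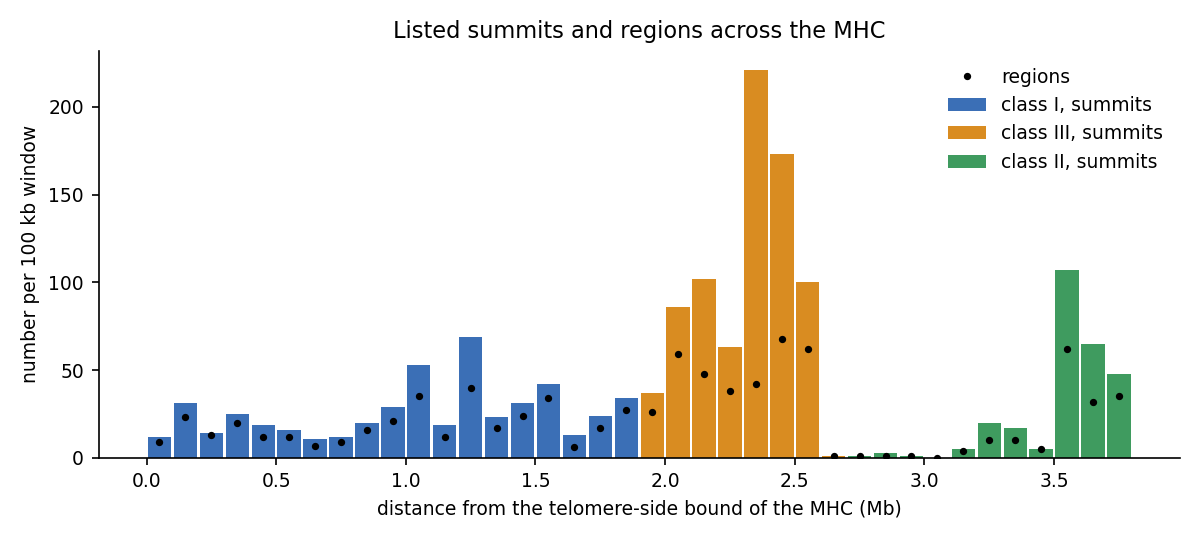
Number of listed summits (bars, coloured by class) and regions (points) in each 100 kb window, by distance in Mb from the telomere-side bound of the MHC. The highest bar has 221 summits, and a run of windows between class III and the middle of class II has 0 to 5.

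Immediately beyond the dense part of class III the list was almost empty. From 32200001 to 32800000 it held 11 summits in 8 regions, or 18.3 per Mb (9.15 to 32.8). This stretch contains the starts of BTNL2, HLA-DRA, HLA-DRB5, HLA-DRB1, HLA-DQA1, HLA-DQB1, HLA-DQA2, HLA-DQB2 and HLA-DOB. The 11 summits had 10 to 17 reads with a median of 14, and the window from 32600001 to 32700000 had none. The next 0.3 Mb, from 32800001 to 33100000, held 42 summits or 140 per Mb and contains TAP2, PSMB8, TAP1, PSMB9, HLA-DMB, HLA-DMA, BRD2, HLA-DOA, HLA-DPA1 and HLA-DPB1. The last 0.3 Mb, from 33100001 to 33400000, held 220 or 733 per Mb and contains genes such as COL11A2, RXRB, RING1 and DAXX. Class II was therefore uneven, and its mean density describes none of these stretches. The bounds of these stretches were chosen after the windows were seen.

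The longest stretches without any listed region lay in the same place. The longest ran for 203 kb from 32526206 to 32729322 and held the starts of HLA-DRB1, HLA-DQA1, HLA-DQB1 and HLA-DQA2. The second ran for 186 kb from 32211882 to 32397810, with the start of BTNL2, a butyrophilin-like gene. The third ran for 73.3 kb from 32452629 to 32525962, with the start of HLA-DRB5. The DR and DQ genes are among the most polymorphic of the genome. Reads from alleles that differ from hg19 may not be placed there, and the part of this in the empty stretch was not tested.

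Gene starts were examined next, for 109 genes with well-known hg19 positions, written down from background knowledge. A listed summit lay within 1 kb of 87 starts (79.8%), and 28.4% of all positions of the MHC lay within 1 kb of a summit. Of these 87, the nearest summit was within 100 bp of the start in 59, and the median distance was 60 bp. In class I, 32 of 36 starts had a summit, against 24.6% of class I positions. In class III, 37 of 40 did, against 50.1% of positions. In class II, 18 of 33 did, against 17.7% of positions. The reads at a summit, its pileup, were recovered from the deposited fold and p-value. The lowest pileup listed is 10 reads over a background of 2.01 reads, and other criteria of the list, such as a least width, are not known. A start without a summit is therefore one that did not meet these criteria, not one shown to be closed.

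The classical class I genes HLA-B and HLA-C had a summit at the start. The strongest within 1 kb had 22 reads at HLA-C (fold enrichment 7.65, at 31239968) and 21 reads at HLA-B (fold 7.31, at 31325042). These summits lay 55 and 53 bp before the hg19 starts used here. The sequences printed above end at RefSeq starts of another build, which can differ, so the summits cannot be placed on their letters.

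The nonclassical class I genes, which signal mainly to natural killer cells or at the maternal interface, had summits too. HLA-F had 31 reads (fold 10.6, at 29691238). HLA-E had 18 reads at 30457802, and its nearest summit was 440 bp from the start. HLA-G, which is normally restricted to few tissues, had 15 reads at 29796353. HLA-E and HLA-G were the only ones of the 10 class I and antigen processing starts whose strongest summit was under 20 reads. Both genes of stress-induced ligands for the receptor NKG2D had summits, MICA with 23 reads and MICB with 33.

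All 5 antigen processing genes had a summit within 1 kb (against 79.8% of all 109 starts), although 4 of the 5 lie among the class II genes. PSMB8, an immunoproteasome subunit, had 32 reads (fold 11.0, at 32812489). TAPBP, which encodes tapasin, had 23 reads at 33281504, and TAP2 had 20 at 32805898. TAP1 and PSMB9 are transcribed away from each other from neighbouring starts and shared 1 strongest summit of 21 reads at 32821522. That summit is therefore 1 observation and not 2. At TAP1, TAP2 and PSMB8 the nearest summit lay 20 to 22 bp from the start, with 18, 11 and 11 reads. The strongest summits given above for PSMB8, TAPBP and TAP2 were other ones, 673, 660 and 649 bp from the starts.

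None of the 13 class II genes had a summit within 1 kb of the start, and 17.7% of all class II positions lay that near. Of the 272 summits of class II, however, 220 lay from 33100001 to 33400000, where none of these genes starts. The share of positions near these genes alone was not computed. The DR and DQ genes and HLA-DOB start on the sparse stretch described above, with 11 summits in 0.6 Mb. There, few positions of any kind lie near a summit. The 9 classical genes are HLA-DRA, HLA-DRB5, HLA-DRB1, HLA-DQA1, HLA-DQB1, HLA-DQA2, HLA-DQB2, HLA-DPA1 and HLA-DPB1. The 4 nonclassical genes are HLA-DMA and HLA-DMB, which load peptide onto class II molecules, and HLA-DOA and HLA-DOB, which modulate that step. Their nearest summits lay far off in the DR and DQ group, at 9.79 kb for HLA-DRA, 28.1 kb for HLA-DRB5, 31.5 kb for HLA-DRB1, 79.0 kb for HLA-DQA1, 94.9 kb for HLA-DQB1 and 20.2 kb for HLA-DQA2. HLA-DQB2 was the exception in this group, with a summit of 11 reads at 1.98 kb.

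In the DM, DO and DP group the distances were shorter. The nearest summit was at 1.88 kb for HLA-DOA (15 reads), 2.47 kb for HLA-DMB (11 reads) and 3.88 kb for HLA-DMA (12 reads). It was at 4.21 kb for HLA-DPA1 (15 reads), 5.07 kb for HLA-DPB1 (12 reads) and 9.55 kb for HLA-DOB (14 reads). Within 2 kb the count rose from 0 to 2 of 13 (HLA-DQB2 and HLA-DOA), and within 5 kb to 5 of 13. A longer transcript of HLA-DPA1 is known to begin near HLA-DPB1, and that start was not examined.

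**Figure D2:**
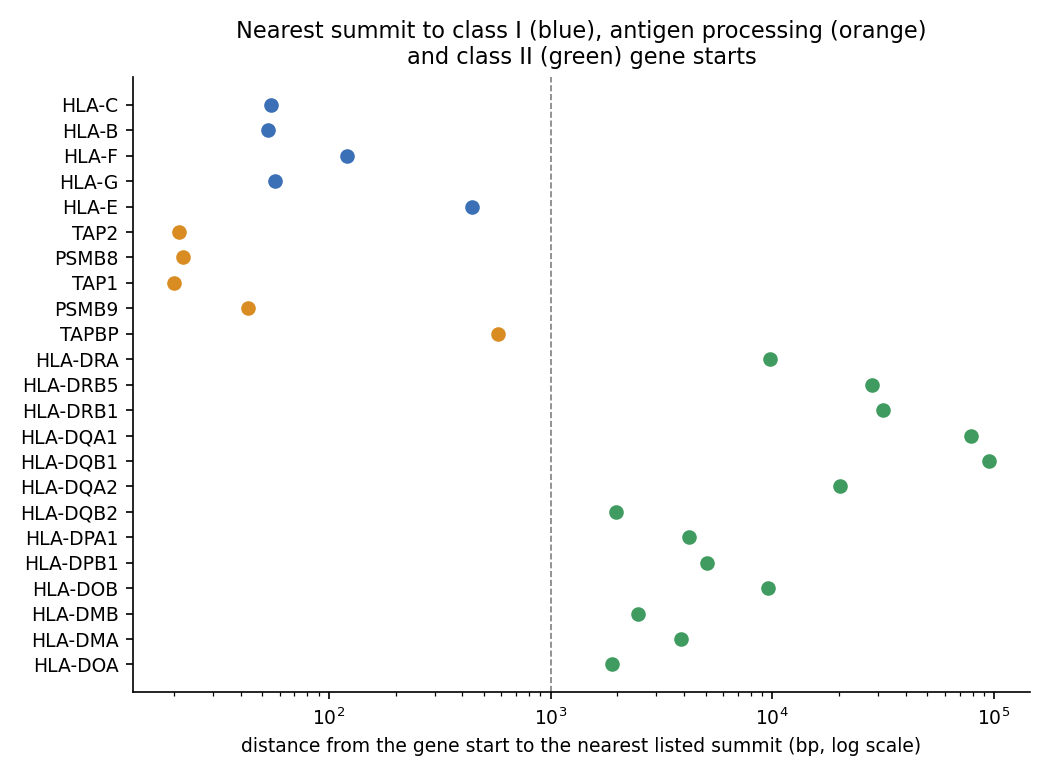
Distance in bp, on a log axis, from each gene start to the nearest listed summit, with 1 point per gene and a dashed line at 1 kb. The 5 class I and 5 antigen processing genes lie left of the line, and the 13 class II genes lie right of it, from 1.88 to 94.9 kb.

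BRD2, a bromodomain protein that binds acetylated histones, lies between HLA-DMA and HLA-DOA. Its start had 5 summits within 1 kb, the strongest with 28 reads at 32936259. Summits were thus listed at gene starts on the same 0.3 Mb stretch as HLA-DMB, HLA-DMA, HLA-DOA, HLA-DPA1 and HLA-DPB1, which had none. The other class II genes start between 32200001 and 32800000, where no start examined had a summit. Why the class II starts lacked one was not tested.

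Class III was examined by function, in groups that also hold genes of the other classes. Of 9 genes of cytokines and leukocyte proteins in the MHC, 7 had a summit (77.8%). The share was 79.8% over all 109 starts, which include the 13 class II genes without a summit, and 92.5% over the 40 starts in class III. All of these 9 genes but BTNL2, which starts in class II, start in class III. At TNF, the tumour necrosis factor gene, it had 20 reads and lay 4 bp from the start, at 31543348. LTB, which encodes lymphotoxin beta, had 27 reads and LTA, lymphotoxin alpha, had 25, at 759 and 894 bp into the genes. NFKBIL1 had 16 reads at a summit it shares with ATP6V1G2. AGER, the receptor for glycation end products, had 15, LST1 had 13 and AIF1, a macrophage gene, had 10, the lowest value that is listed. NCR3, a natural killer cell receptor gene, and BTNL2 had none, and their nearest summits were at 3.01 kb and 22.9 kb. The strongest summit at these 7 genes had a median of 16 reads, against 21 over all 87 genes with a summit.

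Of the 4 complement genes 3 had a summit (75.0%, against 79.8% of all 109 starts and 92.5% of the 40 starts in class III). C4B had 23 reads, C4A had 16 and CFB, complement factor B, had 11. C2 had none within 1 kb of the start used, and it is known to have a further start upstream that was not examined. C4A and C4B are near-identical copies, so reads may be placed on either and the values are uncertain for each. The same holds for HSPA1A and HSPA1B, inducible heat shock 70 genes, which had 25 and 29 reads. HSPA1L shares the summit of HSPA1A at 31783264.

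All 18 genes of chromatin and transcription had a summit within 1 kb of the start, with 12 to 35 reads at the strongest (median 21.5). The share over all 109 starts was 79.8%, and these include the 13 class II genes without a summit. PHF1, a Polycomb-associated protein, had 35 reads at 33378245, 528 bp before the start. ZBTB12, a zinc finger gene, had 33 at 31870200, 431 bp before the start. EHMT2, which encodes the histone H3 lysine methyltransferase G9a, had 30 at 31864707, 757 bp into the gene. The summits nearest to the starts of PHF1, ZBTB12 and EHMT2, at 124, 66 and 19 bp, had 24, 11 and 12 reads. BRD2 followed with its 28. RING1, a Polycomb ubiquitin ligase, had 19, and so did DAXX, a histone chaperone. POU5F1, known as a pluripotency factor, had 20 reads at 31138908, and a summit of 11 reads lay 7 bp from its start.

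Of 13 genes of RNA processing and translation 11 had a summit (84.6%, against 79.8% of all 109 starts). PRRC2A had 38 reads at 31587809, 641 bp before the start, and its nearest summit, at 1 bp, had 11. RPP21, a ribonuclease P subunit, had 29. ABCF1 had 23 and VARS2, a mitochondrial valyl-tRNA synthetase, had 22, the same as VARS. DDX39B, an RNA helicase used in all cells, and WDR46 had none, with the nearest summits 4.17 and 4.10 kb away. Genes used in all cells can thus lack a listed summit at the start, which bears on how an unlisted start can be read.

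Of 7 TRIM and RING finger genes 5 had a summit (71.4%, against 79.8% of all 109 starts). They were RNF5 (30 reads), TRIM39 (24), TRIM26 (21), RNF39 (18) and TRIM15 (14). TRIM31 and TRIM10 had none. Of the remaining 30 genes 28 had a summit (93.3%, against 79.8% of all 109 starts). KIFC1, a mitotic kinesin, and CUTA had 36 reads each. DDR1, a collagen receptor of epithelial cells, had 33 reads at 30851863, 2 bp from its start, and 11 summits within 1 kb, more than any other of the 109 genes. GABBR1 also had 33. MOG, a myelin gene, and MUC21, a mucin gene, had none within 1 kb.

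**Figure D3:**
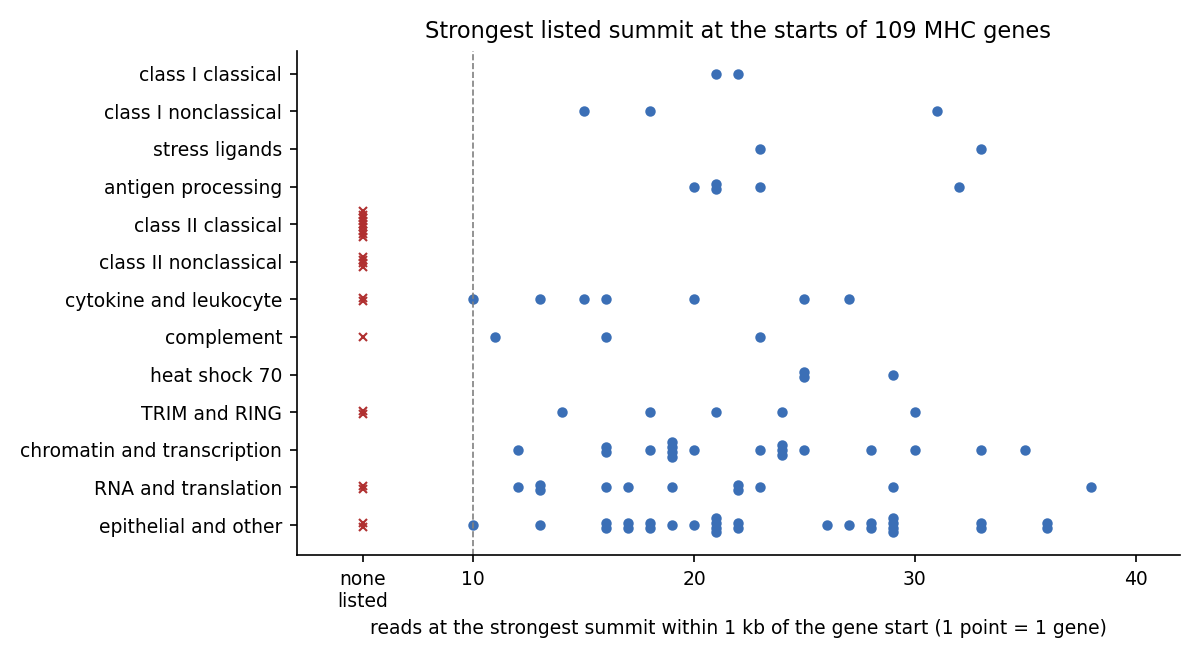
Reads at the strongest listed summit within 1 kb of each of 109 gene starts, by gene group, with 1 point per gene, crosses for starts without a listed summit and a dashed line at the lowest listed value of 10 reads. The crosses include all 13 class II genes. Of the 109 genes 87 have a point, all 18 chromatin and transcription genes among them.

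Strength in the MHC was ordinary for the list at the median and lacked its strongest summits. The median fold was 5.32, as in the whole list, and the median pileup 15 reads. The highest pileup was 50 reads, whereas the rest of the arm reached 1708 and the list 245280. Reads outside the MHC, here and in the shares below, were computed with the background found in the MHC. Summits of 20 reads or more made up 21.5% (Wilson interval 19.5 to 23.6%) in the MHC, 16.0% (15.0 to 17.0%) in the rest of the arm and 26.5% in the list. Among the classes the share was 26.3% in class III (23.3 to 29.5%), 18.0% in class II (13.9 to 23.0%) and 15.9% in class I (12.9 to 19.4%). The interval of class III lies above that of class I and does not overlap it, but it treats summits of 1 region as independent. Of the 206 such summits of class III, 57 lay in the C4A copy and 50 in the C4B copy described below. The shares there were 44.2% and 41.0%, and class III was not examined for strength without these copies. Summits within 1 kb of one of these 109 starts had at least 20 reads in 27.6% of 326 cases (23.0 to 32.7%), against 19.9% of the other 1226 (17.8 to 22.2%).

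**Figure D4:**
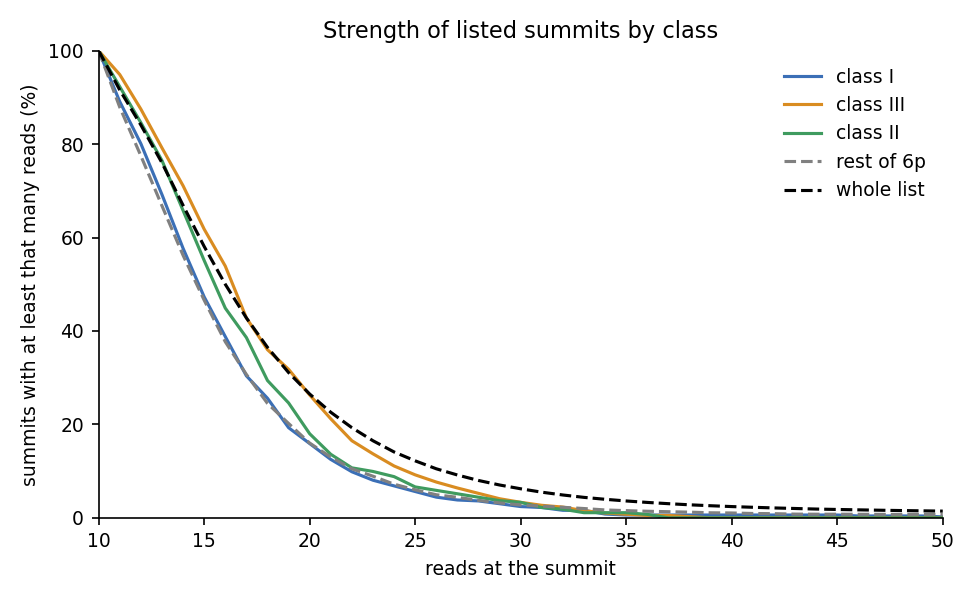
Share of summits in percent that have at least the given number of reads, for the 3 classes, the rest of the short arm of chromosome 6 (6p) and the whole list. At 20 reads the lines stand at 26.3% for class III, 18.0% for class II, 15.9% for class I, 16.0% for the rest of 6p and 26.5% for the list.

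The strongest region was not near any of the 109 starts examined. It ran from 30672069 to 30673442 (1374 bp, 4 summits, 50 reads, fold 17.0, −log10 q 48.2), 12.9 kb downstream of the start of MDC1, a DNA damage checkpoint gene. The next had 38 reads each, at 31587767 to 31588117, 641 bp before PRRC2A, and at 32006793 to 32014335, beyond the start of CYP21A2, which encodes steroid 21-hydroxylase. Of the 10 strongest regions 4 lay around the C4 genes, with 34 to 38 reads. Those at KIFC1 (33359082 to 33359908), CUTA (33385694 to 33386361) and PHF1 (33377831 to 33379029) covered or adjoined the starts. The region from 30917262 to 30918987 had 34 reads and lay 33.4 kb from the nearest of the 109 starts, that of MUC21.

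Regions of class I were narrower at the median than those of the other classes, and more of them had a single summit, while classes II and III were close to each other. The median width was 240 bp in class III, 237 bp in class II and 194 bp in class I (193.5), against 208 bp over the list. Regions with a single summit made up 64.2% in class III, 65.8% in class II and 78.2% in class I. The 4 widest all lay around the C4 genes. They were 32006793 to 32014335 (7543 bp, 42 summits), 31991598 to 31997993 (6396 bp, 32 summits), 31958869 to 31963720 (4852 bp, 30 summits) and 31976743 to 31980249 (3507 bp, 20 summits). The fifth, at 30994495 to 30997038 in class I, was 2544 bp wide with 4 summits.

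The complement C4 genes lie in a tandem module whose copies are known to be nearly identical. The C4A and C4B starts used here are 32738 bp apart. From the C4A start over this length lay 129 summits in 16 regions, and from the C4B start over the same length 122 summits in 14 regions. Their pileups ran from 10 to 37 reads (median 18) in the first copy and from 10 to 38 (median 19) in the second. Summits of 20 reads or more made up 44.2% and 41.0%, against 21.5% in the MHC as a whole. Both copies together held 251 summits, or 16.2% of those of the MHC and 32.1% of those of class III.

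The longest stretch without a listed region fell at nearly the same place in each copy. It ran from 31952452 to 31958868 in the first (6.42 kb, from 2.62 to 9.03 kb past the C4A start) and from 31985075 to 31991597 in the second (6.52 kb, from 2.50 to 9.03 kb past the C4B start). Long C4 genes are known to carry the endogenous retrovirus HERV-K(C4) in an intron in their first part, but no annotation of hg19 was used to place it. Reads that fit both copies cannot be assigned to either, and the sources used here do not say how the authors placed such reads. The likeness of the copies is therefore not independent evidence for either, and the part of read placement in these values was not tested.

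**Figure D5:**
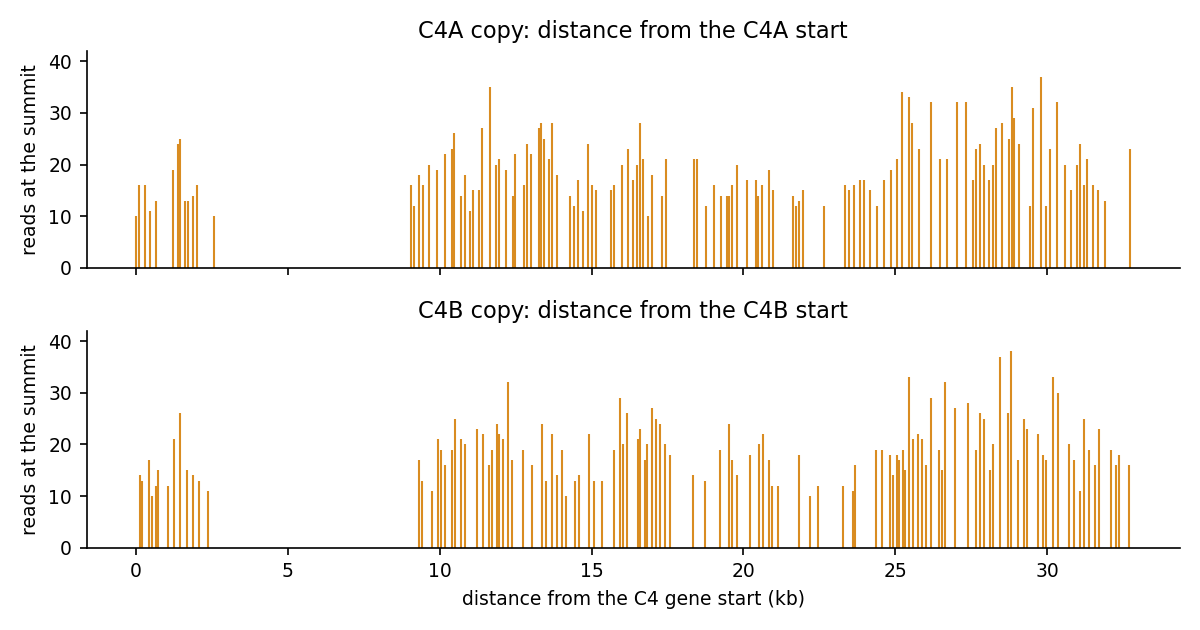
Reads at each listed summit (vertical lines) by distance in kb from the C4A start (top) and the C4B start (bottom), over 32.7 kb each. Both copies show summits near the start, none for about the length given in the text from 2.62 or 2.50 to 9.03 kb, and many beyond.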

How the data were processed

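Accessibility was measured by ATAC-seq on 75000 cells per library in 4 samples. Per the submitters' processing notes, the aligner was Bowtie 1.1.2, the genome hg19 and the peak caller MACS2. The sources used here do not give MACS2 options, the treatment of duplicate and multiply placed reads, the pooling of samples or total reads.

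The deposited fold is a ratio of summit signal to background, the deposited p-value and q-value columns hold −log10 values, and the deposited score is 10 times −log10 p without decimals in all 371521 lines. The fold, p and q of each peak are the authors'. Positions are counted from 1.

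Reads at a summit were recovered from fold and p under a Poisson model. All 32 distinct pairs of fold and p in the MHC gave whole reads over a background between 2.007559 and 2.007564 reads (largest distance from a whole number 1.51e-05). Outside the MHC, reads were computed from the fold with the median of this background, and whether it holds there was not checked. The solver was tested on simulated data. Intervals cover counting error only: summits of 1 region are not independent, and amplified reads lack molecular identifiers.

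No hg19 annotation was used. The start positions of the 109 genes, 1 per gene, are hg19 positions written down from background knowledge, so distances of a few bp are approximate. All 109 were found in the RefSeq table of GRCh38.p14 on chromosome 6 (4 by synonym), and 103 of 108 neighbouring pairs stood in the same order. The other 5 pairs are genes with close, overlapping or alternative starts. The spacing of the starts was also compared once with the coordinates of that table, although it is of another build. No start was changed or left out for it and no coordinate was converted, but it informed the remarks on alternative starts. Distances are not adjusted for alternative starts. Promoter entries were not matched for HLA-E, IER3, VARS2, MUC21, POU5F1, NCR3, VARS, C4A, C4B, FKBPL, HLA-DRA, B3GALT4 and DAXX. Some genes of the stretch are not reported here.

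The members and gene lists were chosen with earlier results of these data known. Named items are the 10 strongest and 5 widest regions, the 5 densest and the empty windows, the 3 longest stretches without a region, all immune and heat shock genes listed, and for the other groups those with the most reads or none. Other genes named with values (RING1, DAXX, POU5F1, TRIM15) were chosen after their values were seen. The short arm ran from the first listed base to the stretch without regions at the centromere. Knock-down and control could not be tested against each other on a list without values for single samples. Python 3.11.15, numpy 2.4.6, scipy 1.17.1, pandas 2.3.3 and matplotlib 3.10.9 were used.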

Additional observations from a re-analysis of the deposited data

How the results depend on the processing

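Of 43 alternatives over 8 results, 17 stayed within the interval of the result or within 1.5 times its count, 26 moved and none reversed. Only the density ratios have a direction that could reverse, and the shares, medians and counts do not. Against the centromere-side neighbour alone, which was not among the alternatives, the MHC ratio was 0.992 by summits and 0.864 by regions. The ratio of the MHC to the rest of its arm (4.25) was 3.39 with each region counted once, 5.11 at or above the median fold of the list (58.1% of summits, ties kept), 5.72 at 20 reads or more, 3.38 with regions within 100 bp merged, 4.81 at a q-value of 1e-05 or less, 1.82 against both equal neighbours and 3.35 without the 2 densest windows. The ratio of class III to the other classes (3.53) was 2.32, 4.36, 5.59 and 2.27 under the first 4 of these and 2.30 without the 2 windows. The share of summits in class III (50.5%) was 40.0% with each region counted once, 55.7% at or above the median fold, 61.7% at 20 reads or more, 52.9% at the q-value of 1e-05 and 33.6% without the 2 windows. The median fold (5.32) was 6.32 at or above the median fold of the list and 7.98 at 20 reads or more, by construction. The share in the 4 densest of 38 windows (38.9%), or in the same proportion of windows of other sizes, was 29.2% with each region counted once, 45.1% at or above the median fold, 51.5% at 20 reads or more, 41.4% in windows of 50 kb and 35.9% in windows of 200 kb. Gene starts with a summit (87) were 54 at 20 reads or more, by construction, and 77 to 89 in the other 4 alternatives. Class II starts with a summit (0) were 2 within 2 kb and 5 within 5 kb, and 0 in the other 4. The class I and antigen processing starts (10) were 8 to 10. Other causes of these shifts were not tested. The alternatives without the 2 windows and those for the last 2 results were chosen after seeing the data. No paired analysis was possible because single samples have no values of their own in the list, and no replicate could be left out. Positions under 10 reads are not listed, which limits what an unlisted position shows.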
